A study of Mus musculus with 6 samples.

Results

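Mouse mitochondrial DNA encodes 37 genes, whose GENCODE M21 symbols all start with mt-, and those 37 were taken by that symbol from the 54146 gene identifiers counted. They comprise 13 protein-coding genes, 2 rRNA genes and 22 tRNA genes; 28 lie on the plus strand and 9 on the minus strand. RNA came from NIH/3T3 cells, an immortalised line of Swiss albino mouse embryo fibroblasts. The groups were WT cells of wild-type genotype, KO clone 1 and KO clone 2, both of genotype Mki67-/-, with 2 libraries each. Mki67 encodes Ki-67, the nuclear protein used as a marker of proliferating cells. Both knockouts are single clones, no further allele or treatment is named in the labels, and all groups grew in the same serum-containing medium. The protocol text names 4T1, a mouse mammary tumour line, whereas titles and sources name NIH/3T3. The labels do not say whether replicates came from separate cultures, so the p-values measure the spread between these libraries, which may be technical.

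Mammalian mitochondrial DNA is a small circle transcribed from both strands into long precursors. The heavy-strand promoter gives both rRNAs, most tRNAs and all mRNAs but mt-Nd6, and the light-strand promoter gives mt-Nd6 and the remaining tRNAs. The tRNAs lie between the other genes and are cut out, which frees the rRNAs and mRNAs on either side. The proteins are subunits of respiratory complexes I, III, IV and V, and the rRNAs and tRNAs serve the mitochondrial ribosome that makes them.

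Gene counts ranged from 3873249 in WT replicate 1, the shallowest library, to 19678782 in clone 1 replicate 1. A floor of 3 counts equals 0.152 to 0.775 CPM, which are counts scaled to 1e+06 gene counts of the library. Mki67 was at 46.7 and 53.8 CPM in WT and at 4.27 to 7.82 CPM in the 4 knockout libraries. The 6 fibroblast markers summed to 5747 to 8115 CPM per library, and the 4 epithelial markers to 0.527 to 1.17 CPM, with Epcam at 0. The macrophage markers summed to 12.0 to 18.6 CPM, nearly all of it Cd68 at 12.0 to 18.3 CPM. Adgre1 was at 0 and Ptprc at no more than 0.352 CPM. In bulk RNA, fewer mitochondria or mitochondrial genomes per cell and less RNA from each cannot be told apart.

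The first result concerns which of the 37 genes could be counted at all. Of the 37, 13 had 0 counts in all 6 libraries, 5 had 1 to 18 counts in total, and 19 passed the low-count filter and were tested. The 13 genes at 0 included 6 of the 13 protein-coding genes: mt-Co2, mt-Atp8, mt-Atp6, mt-Co3, mt-Nd3 and mt-Nd4l. The other 7 were the tRNA genes mt-Ty, mt-Ts1, mt-Td, mt-Tk, mt-Tg, mt-Tr and mt-Th. Of those 13 genes, 11 lie in 1 unbroken stretch of mitochondrial DNA, from within mt-Co1 to within mt-Nd4. The exceptions are mt-Ty and mt-Th, which lie outside that stretch.

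Chromosome 1 carries copies of genes of that stretch in the same order, annotated as 7 unprocessed pseudogenes on the minus strand at chr1:24611535-24616197 of GRCm38. The stretch between the outermost copies runs from position 6381 to 11042 of the mitochondrial sequence, 4662 bases against 4663 on chromosome 1. Each member wholly inside it had 0 counts, which was 11 of 11, against 2 of the 24 members wholly outside. The copies match their parents base for base over all aligned bases in mt-Co2 (681 bases), mt-Atp6 (678), mt-Co3 (783), mt-Nd4l (294) and mt-Nd4 (876). In mt-Nd3 the copy differed in 1 of 345 bases, T3C, counted from the gene's first base with the mitochondrial base written first. The start of the copy and the first bases of its mt-Co2 part are printed because they show where the identity begins; capitals mark the differing bases between mt-Co1 and Gm29216. All are from GENCODE M21 transcripts of GRCm38, 5′ to 3′; the mitochondrial stretches are on the plus strand at 6381 to 6440 and 7013 to 7072, and the chromosome 1 stretches, on the minus strand, are chr1:24616138-24616197 and chr1:24615506-24615565.
mt-Co1: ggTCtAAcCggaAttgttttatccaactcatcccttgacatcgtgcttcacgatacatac
Gm29216: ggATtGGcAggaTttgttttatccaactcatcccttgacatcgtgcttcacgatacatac
mt-Co2: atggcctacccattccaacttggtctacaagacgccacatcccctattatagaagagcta
Gm28661: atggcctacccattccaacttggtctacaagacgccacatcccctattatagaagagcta

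The 6 differences between mt-Co1 and Gm29216 (T1056A, C1057T, A1059G, A1060G, C1062A and A1066T, counted from the first base of mt-Co1) all fall in the first bases of the copy, and the sequences are identical from there on. STAR counts only reads with 1 best place, so a read from an identical stretch is counted for neither gene. Of the 50-base windows of mt-Co2, 100% occurred in another annotated transcript, and the share was 99.5% for mt-Atp6, 99.9% for mt-Co3, 98.0% for mt-Nd3 and 98.8% for mt-Nd4l. It was 51.1% for mt-Co1 and 62.2% for mt-Nd4, each copied in part, 8.19% for mt-Nd2, 7.61% for mt-Nd5 and 1.04% for mt-Rnr2. No window was shared for mt-Rnr1, mt-Nd1, mt-Nd6, mt-Cytb or any of the 22 tRNA genes. No window of mt-Atp8 was shared either, although it lies inside the copied stretch, where no pseudogene of it is annotated. The pseudogenes took hardly any counts themselves: Gm28438, the copy of mt-Nd3, had 2 to 15 per library and Gm28661 had 0 or 1. For the 5 protein-coding genes at 0 with an annotated copy (mt-Co2, mt-Atp6, mt-Co3, mt-Nd3 and mt-Nd4l), nearly all windows were shared, so their counts do not measure their RNA. For mt-Atp8 and the 5 tRNA genes inside the stretch the chromosome 1 sequence was not compared, and what set their counts, and those of mt-Ty and mt-Th, to 0 was not tested. Multimapping reads made up 28.3% to 30.3% of all reads per library.

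**Figure D1:**
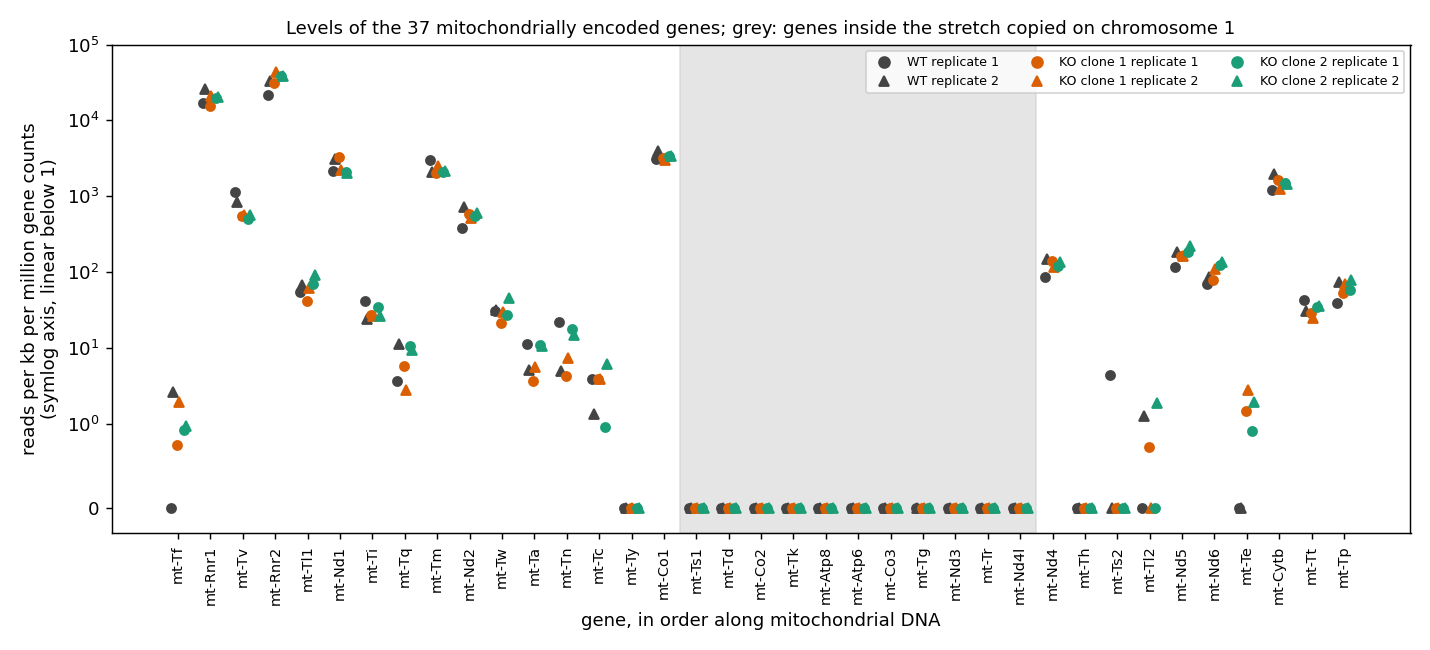
Level of each of the 37 genes in each library, in reads per kilobase and per 1e+06 gene counts on a symmetrical log axis, in order along mitochondrial DNA. All 11 genes in the grey stretch, which lies between the outermost copies on chromosome 1, sit at 0 in the 6 libraries, while both rRNA genes lie at 15429 or more.

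Per length, in CPM per kilobase of gene (RPKM), the 16S rRNA gene mt-Rnr2 was at 21473 to 44128 over the 6 libraries. The 12S rRNA gene mt-Rnr1 was at 15429 to 25749, so their ranges overlapped, although mt-Rnr2 was the higher within each library. The mRNA of mt-Co1, the catalytic subunit of complex IV, followed at 2987 to 3987 RPKM. Taken over only the 1053 bases with no copy on chromosome 1, mt-Co1 was at 4383 to 5850 RPKM. A copy on chromosome 2, Gm13340, shared 27.5% of the 50-base windows of mt-Co1, so part of those 1053 bases also occurs elsewhere. The complex I subunit mt-Nd1 (1995 to 3259 RPKM), the methionine tRNA mt-Tm (2030 to 2963) and the complex III subunit mt-Cytb (1204 to 1963) came next, and mt-Nd1 overlapped with both mt-Co1 and mt-Tm. In clone 1 replicate 1, mt-Nd1 stood above mt-Co1 on the whole-length scale (3259 against 3225 RPKM). Lower still were the valine tRNA mt-Tv at 497 to 1123 RPKM and the complex I subunits mt-Nd2 (378 to 720) and mt-Nd5 (117 to 221). The complex I subunit mt-Nd4 was at 84.7 to 150 RPKM over its whole length and at 232 to 411 over its 502 uncopied bases. The light-strand mRNA mt-Nd6 was at 68.6 to 137 RPKM. The other 8 tRNA genes tested lay between 2.73 and 90.1 RPKM. Reads over several genes were left out, so the levels of short tRNA genes that abut others are uncertain beside those of longer genes.

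All 37 genes together took 5.92% and 8.97% of gene counts in the WT libraries, 7.47% and 9.95% in clone 1, and 9.06% and 9.15% in clone 2. The group means were 7.45% ± 2.15, 8.71% ± 1.75 and 9.11% ± 0.0664 (SD, n = 2 each). The WT libraries and the clone 1 libraries differed more within their group than the group means differed. The 2 rRNA genes made up most of this, at 5.00% and 7.68% in WT, 6.34% and 9.003% in clone 1, and 8.04% and 8.12% in clone 2. The protein-coding genes took 0.898% to 1.27% and the tRNA genes 0.0191% to 0.0299%. The protein-coding share does not cover all mRNA of these genes, as 6 of the 13 had 0 counts. mt-Co1 and mt-Nd4, copied in part on chromosome 1, were counted only in part. RNA was depleted of ribosomal RNA before library preparation, and the labels do not say whether mitochondrial rRNA was targeted; the part of depletion in the rRNA levels was not tested.

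Against WT, 2 of the 19 tested genes were called for the mean of both clones, at a Benjamini-Hochberg adjusted p below 0.05 over all genes: mt-Tv was lower and mt-Nd6 higher. The background was 34.8% of 13120 genes called (16.6% higher, 18.2% lower), so the 2 of 19 lay below it. The median log2 fold change was −0.10 over the 19 genes and 0.005 over all genes tested. Clone 1 alone gave 1 call (mt-Tv lower; background 31.7%, 15.2% higher and 16.5% lower), and clone 2 gave 2 (mt-Tv lower, mt-Nd6 higher; background 27.4%, 12.9% higher and 14.5% lower). Between clone 2 and clone 1, 0 of 19 were called by edgeR's quasi-likelihood test, with 6 at an unadjusted p below 0.05 and a background of 3.54% (1.18% higher, 2.36% lower). The clone contrasts share the WT libraries.

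**Figure D2:**
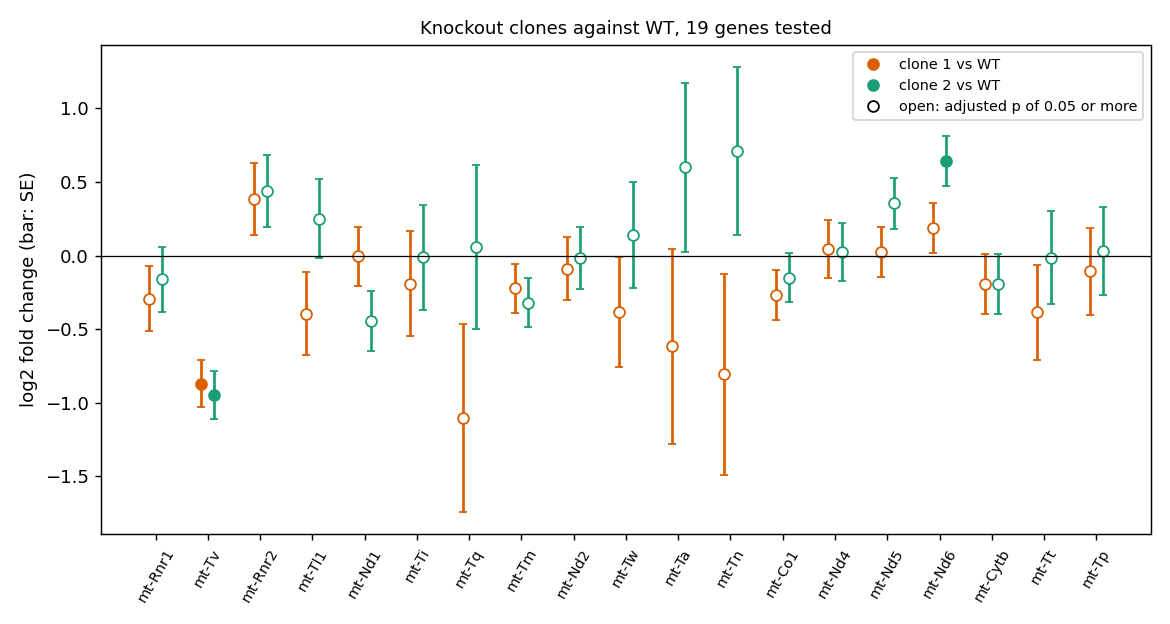
Log2 fold change against WT of the 19 tested genes, in order along mitochondrial DNA, for clone 1 and clone 2 (bars, standard error; filled points, adjusted p below 0.05). The valine tRNA mt-Tv is filled and below 0 in both clones, and mt-Nd6 is filled in clone 2 alone.

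The tRNA genes supplied the call found in both clones. The sequences of 3 tRNA genes are shown, with the anticodon in capitals. They were picked because mt-Tv fell, mt-Tm had the most counts of the tRNA genes, and mt-Tc was read almost wholly on its opposite strand. They are whole genes from GENCODE M21 transcripts of GRCm38, 5′ to 3′: mt-Tv at 1025 to 1093 and mt-Tm at 3845 to 3913 on the plus strand of mitochondrial DNA, and mt-Tc at 5192 to 5257 on the minus strand.
mt-Tv: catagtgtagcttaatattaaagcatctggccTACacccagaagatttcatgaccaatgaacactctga
mt-Tm: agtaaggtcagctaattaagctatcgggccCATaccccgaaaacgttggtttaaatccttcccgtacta
mt-Tc: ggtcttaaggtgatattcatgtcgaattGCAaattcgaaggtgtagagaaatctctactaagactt

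The gene mt-Tv (ENSMUSG00000064338), encoding the tRNA for valine, lies between the 12S and 16S rRNA genes and abuts both. Reads over several genes are left out, so only reads that overlap neither rRNA gene were counted for mt-Tv. Reads over several genes made up 3.94% and 3.78% of all reads in WT and 2.84% to 3.28% in the knockouts. Their part in the mt-Tv level was not tested. The level of mt-Tv was 77.5 and 58.0 CPM in WT. It was 38.1 and 39.2 in clone 1 and 34.3 and 39.2 in clone 2. All 4 knockout libraries lay below both WT libraries, the only one of the 19 genes whose groups did not overlap; over all genes tested, 50.7% did not overlap. Its log2 fold change was −0.91 ± 0.14 for the mean of both clones (SE; 95% interval −1.20 to −0.61, adjusted p = 2.18e-04), −0.87 in clone 1 (adjusted p = 0.00116) and −0.95 in clone 2 (adjusted p = 8.45e-04). It was called lower in all 3 contrasts under every alternative run, and its fold change for the mean ranged from −1.13 without WT replicate 2 to −0.69 without WT replicate 1. The clones did not differ detectably in mt-Tv (log2 difference −0.08, 95% interval −0.41 to 0.26).

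The methionine tRNA gene mt-Tm was at 204 and 145 CPM in WT, 140.1 and 175.2 in clone 1, and 145 and 150.3 in clone 2. WT replicate 1 stood above the other 5 libraries, and the groups overlapped. Its log2 fold change was −0.27 ± 0.14 (adjusted p = 0.157), and it became −0.52 (adjusted p = 0.00149) without WT replicate 2 and 0.003 without WT replicate 1. The other 8 tested tRNA genes had 1 to 102 counts per library, and none was called in any contrast of edgeR's quasi-likelihood test. Of these, the asparagine tRNA mt-Tn had 6 and 4 counts in WT, 6 and 8 in clone 1, and 20 and 16 in clone 2. Its difference between clone 2 and clone 1 was 1.52 on the log2 scale (95% interval 0.44 to 2.59, adjusted p = 0.130). Counts this low leave wide intervals, so differences in these tRNAs were not detectable at this depth unless large. The phenylalanine, cysteine, glutamate and 2 further tRNA genes (mt-Tf, mt-Tc, mt-Te, mt-Ts2 and mt-Tl2) had too few counts to be tested.

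The rRNA genes did not pass the test. The 16S gene mt-Rnr2 was at 33970 and 52178 CPM in WT, 48673 and 69811 in clone 1, and 61527 and 61810 in clone 2; clone 1 replicate 1 lay below WT replicate 2. Its log2 fold change was 0.41 ± 0.21 (adjusted p = 0.155). The 12S gene mt-Rnr1 was at 15996 and 24590 CPM in WT, 14735 and 20223 in clone 1, and 18900 and 19423 in clone 2, with a log2 fold change of −0.23 ± 0.19 (adjusted p = 0.385). WT thus held both the second lowest and the highest value of mt-Rnr1, and its groups overlapped as well.

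The ratio of the 2 rRNA genes was set beside their levels. mt-Rnr2 counts over mt-Rnr1 counts were 2.124 and 2.122 in WT, 3.30 and 3.45 in clone 1, and 3.26 and 3.18 in clone 2. All knockout libraries lay above both WT libraries. The means were 2.12 ± 0.0012 in WT, 3.38 ± 0.105 in clone 1 and 3.22 ± 0.0516 in clone 2 (SD, n = 2 each). The mean of the 4 knockout libraries, 3.30, was 1.55 times the WT ratio. Leaving out any 1 library kept that figure between 1.53 and 1.57. An exact two-sided permutation test of the ratio gave p = 0.133, the smallest that 2 against 4 libraries allow. The ratio was chosen after its values were seen, and the test treats libraries of the same clone as independent, so that p supports nothing. Of the other ratios taken, mt-Tv to mt-Rnr2 also separated the groups. For mt-Tv to mt-Rnr1, mt-Nd6 to mt-Nd5 and mt-Nd6 to mt-Cytb the groups overlapped. A ratio shows unequal change of the 2 rRNAs and not which of them changed, and whether depletion acted equally on both in each library was not tested.

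**Figure D3:**
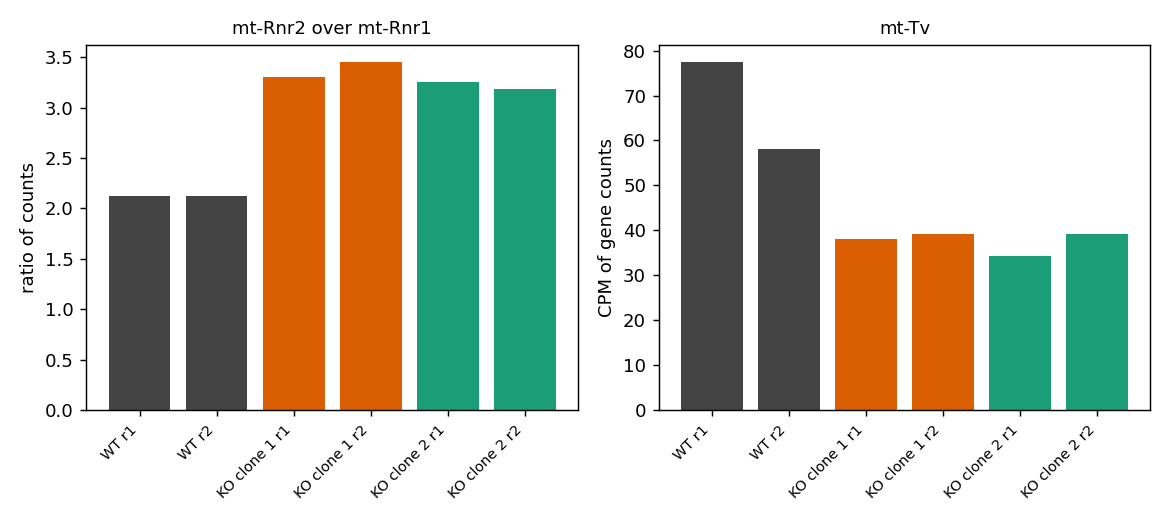
Left, counts of mt-Rnr2 over counts of mt-Rnr1 in each library; right, mt-Tv in CPM in each library; bars start at 0 and are single libraries. The ratio is 2.12 in both WT libraries and 3.18 to 3.45 in the knockout libraries, and mt-Tv is at 58.0 CPM or more in WT and at 39.2 CPM or less in the knockouts.

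Among the 7 complex I subunits of mitochondrial DNA, 5 were tested and mt-Nd6 (ENSMUSG00000064368, minus strand, 13552 to 14070) was the one called. It was at 35.6 and 44.9 CPM in WT, 41.0 and 57.2 in clone 1, and 63.3 and 71.2 in clone 2. Both clone 2 libraries were above all others, while clone 1 replicate 1 lay between the WT libraries. The log2 fold change was 0.41 ± 0.15 for the mean of both clones (95% interval 0.09 to 0.74, adjusted p = 0.0477) and 0.64 ± 0.17 in clone 2 (adjusted p = 0.0132). In clone 1 it was 0.18 ± 0.17 (adjusted p = 0.437), and the difference between the clones, 0.45, did not pass the test (adjusted p = 0.163). The call for the mean was lost with DESeq2 (adjusted p = 0.0571), with scaling by nuclear genes only (0.0710) and when any of 4 libraries was dropped: WT replicate 1 (0.152), replicate 2 of clone 1 (0.162), and replicates 1 (0.0655) and 2 (0.131) of clone 2. The call in clone 2 was lost without clone 2 replicate 2 (0.54, adjusted p = 0.104).

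The other complex I subunits counted were heavy-strand mRNAs and none was called. mt-Nd1 was at 2041 and 2970 CPM in WT, 3118 and 2133 in clone 1, and 1978 and 1909 in clone 2 (log2 fold change −0.23 ± 0.17, adjusted p = 0.340). Within WT and within clone 1 its libraries differed by more than the groups did. mt-Nd2 was at 392 and 748 CPM in WT, 601 and 530 in clone 1, and 567 and 626 in clone 2 (−0.05 ± 0.18, adjusted p = 0.852). mt-Nd5 was at 213 and 330 CPM in WT, 292 and 293 in clone 1, and 334 and 403 in clone 2 (0.19 ± 0.15, adjusted p = 0.355). mt-Nd4 was at 117 and 206 CPM in WT, 192 and 162 in clone 1, and 167 and 184 in clone 2 (0.03 ± 0.17, adjusted p = 0.899). For mt-Nd2 and mt-Nd4 the WT libraries were the lowest and the highest of the 6, so every knockout library fell between them.

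Complex III has 1 mitochondrially encoded subunit, mt-Cytb, the cytochrome b that carries its quinone sites. It was at 1377 and 2245 CPM in WT, 1899 and 1428 in clone 1, and 1699 and 1643 in clone 2, again with all knockout libraries between the WT libraries (log2 fold change −0.20 ± 0.18, adjusted p = 0.417). Of the 3 complex IV subunits, mt-Co1 alone was counted. It was at 4802 and 6160 CPM in WT, 4982 and 4615 in clone 1, and 5170 and 5262 in clone 2 (−0.21 ± 0.14, adjusted p = 0.280). The groups overlapped. The complex V subunits mt-Atp6, which has an identical copy, and mt-Atp8, for which no copy is annotated, both had 0 counts in all 6 libraries.

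**Figure D4:**
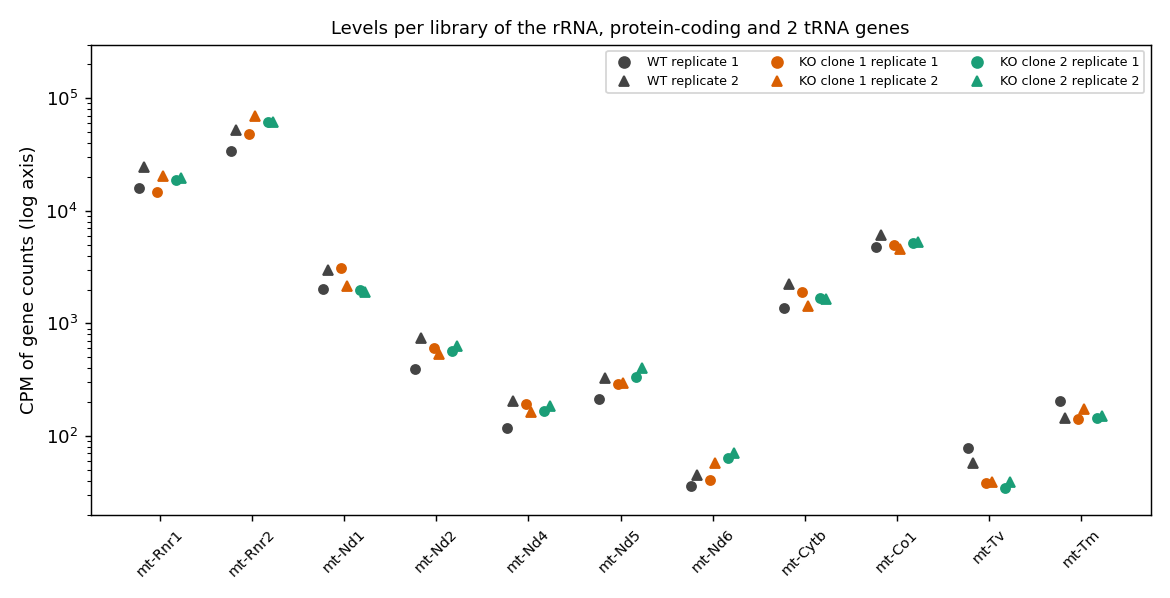
Level in CPM on a log axis of the rRNA genes, the 7 counted protein-coding genes and the tRNA genes mt-Tv and mt-Tm in each library. WT replicate 1 (grey circles) is the lowest library for mt-Rnr2, mt-Nd2, mt-Nd4, mt-Nd5, mt-Nd6 and mt-Cytb and the highest for mt-Tv and mt-Tm.

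The size and direction of several fold changes depended on which WT library was used. Leaving out WT replicate 1 gave log2 fold changes for the mean of both clones of −0.49 for mt-Rnr1 and −0.46 for mt-Nd1. In that fit mt-Nd2 was at −0.43 and mt-Cytb at −0.49. Leaving out WT replicate 2 gave 0.74 for mt-Rnr2, 0.47 for mt-Nd2, 0.50 for mt-Nd4, 0.53 for mt-Nd5 and 0.60 for mt-Nd6. mt-Tv fell in both fits, and mt-Tm fell without WT replicate 2. The direction of mt-Nd2 thus changed with the WT library used. In the fits without a WT library, the remaining one is assumed to vary like the other groups. When each of the 6 libraries was left out in turn, mt-Rnr1, mt-Nd1, mt-Nd4, mt-Nd5 and mt-Cytb also took both signs. The shallower WT library had 9.68% unmapped reads, against 6.10% to 8.94% in the other 5.

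Both strands of mitochondrial DNA are transcribed, so reads on the strand opposite to each gene were also examined. They made up 99.0% to 99.9% of the reads over mt-Tc, the cysteine tRNA gene, whose opposite strand is the heavy-strand transcript. Opposite-strand totals exceeded those of the gene's own strand in 9 members, all tRNA genes: mt-Ti, mt-Tq, mt-Ta, mt-Tc, mt-Ts2, mt-Tl2, mt-Te, mt-Tt and mt-Tp. Among the mRNAs the share was 30.6% to 42.7% over mt-Nd6, 21.4% to 29.9% over mt-Nd5 and 13.6% to 20.9% over mt-Nd4, which lie next to one another or nearly so. It was 0.300% to 0.540% over mt-Co1. Over all genes, the opposite strand held 4.68% to 6.10% of the counts of both strands. In WT replicate 2, mt-Te had 56 opposite-strand counts but 14 unstranded counts, whereas mt-Tc had 533 and 534. How much of the opposite-strand share came from incomplete strand marking was not tested. Nor was the part of leaving out reads over several genes, which is done for each strand separately.

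In the opposite-strand counts, 19 members were among the 3940 genes tested, and 3 were called for the mean of both clones (background 9.44%, 3.45% higher and 5.99% lower): mt-Rnr2 and mt-Cytb were higher and mt-Tc lower. Scaled to 1e+06 reverse-strand gene counts, opposite-strand mt-Cytb was at 28.1 and 22.9 in WT, 40.4 and 59.4 in clone 1, and 36.9 and 38.5 in clone 2, so the groups did not overlap (log2 fold change 0.69 ± 0.16, adjusted p = 0.0104). Opposite-strand mt-Rnr2 was at 41.1 and 56.3 in WT, 76.7 and 134 in clone 1, and 91.4 and 82.6 in clone 2 (0.86 ± 0.19, adjusted p = 0.00998). It too did not overlap, at 0.108% to 0.191% of the counts of both strands. Opposite-strand mt-Tc was at 56.8 and 46.8 in WT, 37.1 and 34.2 in clone 1, and 42.7 and 39.8 in clone 2 (−0.51 ± 0.12, adjusted p = 0.0137).

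Scaled to the opposite-strand totals used in the fit, 4 of the 19 (mt-Rnr2, mt-Nd1, mt-Tm and mt-Cytb) lay above WT in all 4 knockout libraries and 0 lay below, with mt-Tc overlapping on that scale. In either direction, 32% of all 3940 genes did not overlap. Clone 1 alone gave the same 3 calls by name (background 9.04%, 3.5% higher and 5.53% lower). Clone 2 gave 3 others, all higher (background 6.12%, 2.44% higher and 3.68% lower): mt-Nd1 (0.59, adjusted p = 0.0254), mt-Nd2 (0.58, adjusted p = 0.0320) and mt-Nd5 (0.70, adjusted p = 0.0495). Opposite-strand mt-Nd5 was at 59.4 and 89.7 in WT, 88.7 and 125 in clone 1, and 127 and 133 in clone 2. The difference between the clones was not tested on this strand. The mt-Rnr2 call was lost with DESeq2 (adjusted p = 0.0896), the mt-Cytb call without WT replicate 2 (0.0580), and the mt-Tc call in the absence of WT replicate 1 (0.0840), of the second replicate of clone 1 (0.0712) or clone 2 (0.0524), or of the low-count filter (0.569). All 3 calls in clone 1 were lost without its replicate 2, and each of the 3 in clone 2 was lost without at least 1 library.

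**Figure D5:**
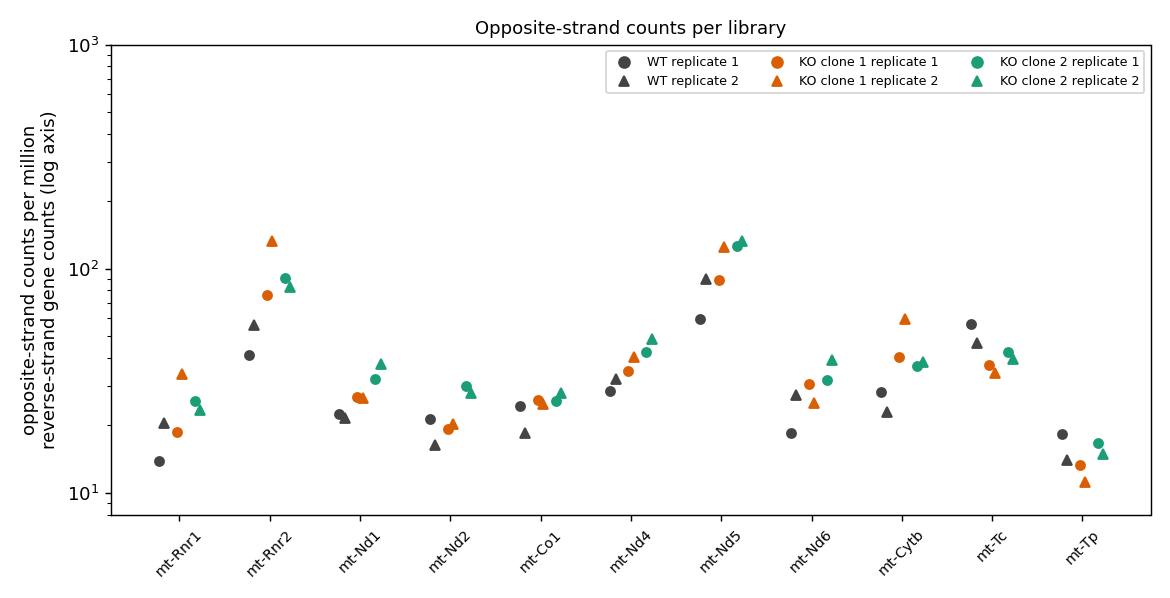
Counts on the strand opposite to each gene, scaled to 1e+06 reverse-strand gene counts, in each library (log axis). For mt-Rnr2, mt-Nd1, mt-Co1, mt-Nd4 and mt-Cytb all 4 knockout libraries lie above both WT libraries, and for mt-Tc all 4 lie below. Scaled to opposite-strand totals instead, the groups overlapped for mt-Co1, mt-Nd4 and mt-Tc. The share of all genes that did not overlap was not taken on the scale shown.

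Nuclear genes supply every other part of these complexes and of the machinery that copies, transcribes and translates mitochondrial DNA. Lists of them are given by counts for the mean of both clones against WT, with the same background of 34.8%, and rises and falls are on the log2 scale. List medians ran from −0.27 in complex II to 0.21 in the transcription and replication factors, against 0.005 over all genes. Of 17 transcription and replication factors tested, 2 fell and 0 rose by edgeR's quasi-likelihood test. Polrmt, the mitochondrial RNA polymerase, was at 90.9 and 82.9 CPM in WT, 60.6 and 56.2 in clone 1, and 56.5 and 64.8 in clone 2 (log2 fold change −0.62 ± 0.12, adjusted p = 0.00114). Twnk, the helicase of mitochondrial DNA replication, was at −0.31 ± 0.11 (adjusted p = 0.0458), a call lost without any 1 of the 6 libraries and with DESeq2, unstranded counts, no filter or a replicate block. Of 31 RNA processing and stability factors, 5 rose and 3 fell. Trmt10c and Hsd17b10 encode subunits of the mitochondrial RNase P, which cuts the 5′ ends of the tRNAs. Their values were 0.84 ± 0.27 (adjusted p = 0.0271) and −0.70 ± 0.12 (adjusted p = 6.73e-04), and the Trmt10c call was lost when clone 1 replicate 2 (adjusted p = 0.0618) or the first replicate of clone 2 (0.0653) was dropped. The Trmt10c fold change ran from 0.60 without WT replicate 1 to 1.48 without WT replicate 2. In single clones, Polrmt was called in both, Trmt10c was not called in clone 2 (adjusted p = 0.111), nor Twnk in clone 1 (0.212). Pde12, a mitochondrial poly(A)-specific nuclease, rose by 0.67 and Ptcd1 fell by 0.42.

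Of 77 mitochondrial ribosomal protein genes, 5 rose and 9 fell, and the medians of this list (−0.07) and of all genes (0.005) lay close together. Mrps30 was at 98.9 and 89.4 CPM in WT, 50.6 and 46.5 in clone 1, and 55.2 and 56.9 in clone 2 (−0.93 ± 0.11). Mrps10 fell by 0.52, and Mrpl47 and Mrpl1 rose by 0.76 and 0.75. Against WT, 4 genes of the list rose and 13 fell in clone 1, and 3 rose and 5 fell in clone 2. Background was 31.7% in clone 1 and 27.4% in clone 2. The list gave 9 calls without WT replicate 1 and 6 without clone 2 replicate 1. Of 22 genes that charge mitochondrial tRNAs, 4 rose and 3 fell. Sars2, the mitochondrial seryl-tRNA synthetase, was at 35.6 and 33.4 CPM in WT, 15.4 and 13.2 in clone 1, and 14.4 and 17.8 in clone 2 (−1.26 ± 0.15). Gars, which charges glycine tRNAs in both cytosol and mitochondria, fell by 0.73, and Cars2 and Gatc rose by 0.74 and 0.72 (Gatc by 1.08 without WT replicate 2).

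Among nuclear genes of the respiratory complexes, 6 of 35 subunits in complex I, 2 of 4 in complex II, 2 of 9 in complex III and 1 of 11 in complex IV fell. Of 15 genes listed for complex V, 1 fell, the inhibitor Atpif1 and no subunit. Cox7b of complex IV alone rose, by 0.39. The complex I subunits Ndufc2 and Ndufb6 each fell by 0.57. In complex II, which has no mitochondrially encoded subunit, Sdhb fell by 0.58 and Sdha by 0.43. Uqcrfs1 of complex III fell by 0.44, Uqcrh by 0.37 and Cox6b1 of complex IV by 0.43, and these 3 calls were lost without WT replicate 1; the Cox7b call was lost without clone 1 replicate 1 or clone 2 replicate 1. Atpif1, the inhibitor of the ATP synthase that is complex V, was at 216 and 198 CPM in WT, 115 and 105 in clone 1, and 109 and 111 in clone 2 (−0.99 ± 0.11, adjusted p = 1.27e-05). The 14 other complex V genes tested did not pass the test. Of 9 regulators of mitochondrial biogenesis, 4 rose, among them Gabpb2 by 0.73 and Gabpa by 0.51, both of the GA-binding protein that acts on nuclear genes of mitochondrial proteins. The Gabpa call was lost without clone 1 replicate 2 or clone 2 replicate 2. In single clones, complex I had 5 falls in each, and complex III had 3 in clone 1 and 0 in clone 2. Background was 31.7% in clone 1 and 27.4% in clone 2. Cox7b, Uqcrh and Uqcrfs1 were not called in clone 2 (adjusted p = 0.103, 0.0743 and 0.0843), nor Sdha in clone 1 (0.0514). Ndufc2, Ndufb6, Sdhb, Cox6b1 and Atpif1 were called in both clones.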

How the data were processed

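Per the submitters' processing notes, reads were checked with FastQC and aligned with STAR 2.6.0c to GRCm38; RNA was rRNA-depleted and made into TruSeq stranded libraries, per the labels' protocols. The authors deposited unnormalised gene counts in STAR's layout, with Ensembl identifiers. Neither annotation release nor read length is named (not given in the sources used here). Reverse-strand counts were used, and opposite-strand counts where stated; GENCODE M21 names matched 54079 of 54146 identifiers. Rows naming no gene held 46.6% to 50.5% of reads and stayed out of all fits. Reads over several genes are also left out, so abutting tRNA genes are uncertain. The floor of 3 counts covers counting error only, while intervals of fold changes come from the fit and include the spread between libraries.

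The whole table was fitted with edgeR 4.0.16 in R 4.3.3: filterByExpr (minimum count 10), TMM, quasi-likelihood test, 1 coefficient per group, 6 libraries, 3 residual degrees of freedom. All adjusted p-values are edgeR's with Benjamini-Hochberg adjustment unless DESeq2 1.42.0 is named. Alternatives were DESeq2, scaling by nuclear genes, no filter, unstranded counts, a replicate block and leaving out each library; scaling opposite-strand counts by reverse-strand totals, the search of shared windows in transcripts and leaving libraries out of the rRNA ratio were chosen after seeing the data. Steps were tested on simulated counts. Replicates differed by more than sampling noise (chi-square per degree of freedom 13.6, 19.4 and 22.2). The members and nuclear lists were chosen with earlier results of these data known. Named were all 37 members, Mki67, the cell type markers and up to 2 called members in each direction of each nuclear list.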

Additional observations from a re-analysis of the deposited data

How the results depend on the processing

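The calls rest on 2 WT libraries that differ from each other, the shallower at 3873249 gene counts, and low counts limit most tRNA genes; 13 members had 0 counts in all libraries. The fall of mt-Tv held under every alternative run, all of which leave out reads over several genes. The counts of members called moved as follows. For the mean of both clones, 1 was called with DESeq2 and 1 with nuclear scaling, and 1 to 7 when libraries were left out in turn. Clone 1 had 2 without the filter, 2 on unstranded counts and 1 to 6 on leaving out libraries. Clone 2 had 5 without the filter and 1 to 7, and clone 2 against clone 1 had 2 without the filter and 0 to 4. Leaving out libraries gave 2 to 5, 0 to 5 and 1 to 5 opposite-strand calls for the mean, clone 1 and clone 2. The cause was not tested, and the share of all genes called was not taken for these alternatives.

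With libraries left out, list calls ranged from 0 to 4 for complex III, 1 to 2 for complexes IV and V and for transcription and replication factors, 6 to 17 for ribosomal proteins and 2 to 4 for biogenesis regulators. Complex V had 2 calls with DESeq2, 3 without the filter and 2 with the replicate block; transcription and replication factors had 1 with DESeq2 and 1 on unstranded counts. Over all reads instead of gene counts, the members' share was 3.74% in WT, 4.58% in clone 1 and 4.83% in clone 2; on unstranded counts clone 2 was at 9.42%.

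Replicate numbers did not pair the libraries (correlations of deviations 0.27, −0.09 and −0.11). A replicate block gave 2 calls for the mean, 1 for clone 1, 3 for clone 2 and 0 between clones.

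The log2 fold change for the mean, none of these called in the full fit, changed sign for mt-Tl1 (0.0038) and mt-Tp (0.067) with the block, mt-Tq (0.019) on unstranded counts, mt-Ta (0.037) and mt-Tp (0.010) without the filter and mt-Tp (0.023) with DESeq2. Leaving out libraries gave −0.49 to 0.10 for mt-Rnr1, −0.22 to 0.12 for mt-Tl1, −0.46 to 0.056 for mt-Nd1, −0.62 to 0.17 for mt-Ti, −0.86 to 0.76 for mt-Tq, −0.52 to 0.0033 for mt-Tm, −0.43 to 0.47 for mt-Nd2, −0.33 to 0.041 for mt-Tw, −0.76 to 0.39 for mt-Ta, −1.26 to 0.88 for mt-Tn, −0.29 to 0.50 for mt-Nd4, −0.073 to 0.53 for mt-Nd5, −0.49 to 0.19 for mt-Cytb and −0.27 to 0.64 for mt-Tp. Without the filter mt-Rnr2 was called (0.46, adjusted p = 8.57e-10). Of the alternative values of single genes, 530 kept their direction and side of the threshold, 48 lost the call, 9 gained it and 28 changed sign.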
